A study of Mus musculus with 4 samples.

Results

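Islet stromal cells and pericytes were taken as the cells of 4 mouse islet single-cell RNA sequencing libraries that carried at least 1 UMI (unique molecular identifier, 1 counted RNA molecule) of 3 or more of the 7 genes Col1a1, Col1a2, Col3a1, Dcn, Pdgfrb, Pdgfra and Rgs5. They also had 0 UMIs of the leukocyte gene Ptprc and of the endothelial gene Cdh5, and insulin transcripts (Ins1 and Ins2) under 5% of their UMIs. Only barcodes with mitochondrial UMIs under 10%, 1000 to 50000 UMIs and 500 or more genes were considered. The rule found 367 members among 22218 barcodes, of which 15416 lay within those bounds. Members were chosen by the measured UMIs of these 7 genes, of Ptprc and Cdh5 and of insulin, so their levels in members against other cells are a description. At the edge of the rule, 85 members had UMIs of exactly 3 of the 7 genes, with 11819 CPM (UMIs per 1000000 of the summed UMIs of those cells) of the 7 genes together, and 41 cells that met the other conditions had 2, with 4561 CPM.

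The study compared islets of male mice homozygous for a Pax4 knock-in allele (HH) with those of wild-type littermates (WT), all on the C57BL6/N background. Pax4 encodes a transcription factor of islet development. The WT SCD and HH SCD mice were 12 weeks old and had eaten a standard chow diet throughout. The WT HFD and HH HFD mice were 16 weeks old and had eaten a high-fat diet for 4 weeks. Each of the 4 groups was 1 droplet 3′ library made from the pooled islets of several mice after trypsin-EDTA dissociation, and the knock-in allele is carried by every cell of the HH mice, stromal cells included. Since every group was a single library, differences between groups could not be checked in replicates or tested, and library and group cannot be told apart. Age and diet cannot be told apart between the SCD and HFD libraries. Where 4 values follow each other without names they stand in the order WT SCD, HH SCD, WT HFD, HH HFD. Intervals are 95% intervals and take in counting error alone.

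Pericytes are contractile cells that sit on the capillary wall within the endothelial basement membrane, and vascular smooth muscle cells take the same place on arterioles. Together they are called mural cells. In islets they share the dense capillary bed that supplies the endocrine cells, regulate local blood flow and make basement membrane that beta cells adhere to. Fibroblasts lie in the connective tissue around vessels, ducts and the islet border and make fibrillar collagens, small proteoglycans and growth factors.

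The label was set beside marker lists of stromal and other cell types, leaving out the genes the rule used (2 of 14 pericyte, 5 of 15 fibroblast, 2 of 9 beta cell, 1 of 10 endothelial and 1 of 9 macrophage markers). Over the 367 members, the other 12 genes of the pericyte list summed to 5650.5 CPM, the 12 of the smooth muscle list to 7573 CPM and the other 10 of the fibroblast list to 7277 CPM. In 1036 endothelial comparison cells, themselves chosen by marker UMIs, the same lists summed to 288 CPM, 134 CPM and 35.6 CPM. The other 9 endothelial markers summed to 73.6 CPM in members. The other 8 macrophage markers summed to 137 CPM in members, ranging from 14.8 CPM in WT SCD to 252 CPM in HH HFD, where nearly all of it was Cd74, an MHC class II chaperone. Mesothelial, Schwann and lymphocyte lists summed to 24.4, 28.8 and 26.6 CPM. The 9 markers of stellate cells summed to 2999 CPM in members and 999.6 CPM in endothelial cells, most of it Vim, an intermediate filament gene of mesenchymal and endothelial cells, and the defining stellate genes Lrat, Reln and Gfap stood at 2.21, 0 and 0 CPM. The 10 markers of alpha, delta and PP cells, hormone genes among them, summed to 10451 CPM in members and 11143 CPM in endothelial cells. By library they were at 10491, 1714, 1884 and 14963 CPM in members, high in the pair of libraries that held the 6 hormone-rich cells of sub-cluster 7. The 7 beta cell markers without Ins1 and Ins2 summed to 2196 CPM in members and 2321 CPM in endothelial cells, and Ins2 had a UMI in all 367 members and all 1036 endothelial cells. After each cell was thinned to 1000 UMIs, Rgs5, a gene of the rule, was found in 63.5% of members, 1.54% of endothelial cells and 0.149% of beta cells, and Dcn, also of the rule, in 48.8%, 0.193% and 0%. Members were shallow beside the islet cells around them, with a median of 4382 UMIs (1011 to 15934) against 18788 over all cells within the bounds. Their UMIs summed to 406432 (WT SCD), 129517 (HH SCD), 353019 (WT HFD) and 917252 (HH HFD). No barcode was shared among members of different libraries. The WT HFD library stood apart from the others, with leukocytes at 17.4% of its cells within the bounds against 1.87 to 4.09% and a median of 5185 UMIs per barcode against 11619 to 15768, so shares of its members have a different denominator.

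WT SCD had 71 members among 3521 cells within the bounds (2.02%, exact Clopper-Pearson interval 1.58 to 2.54%). HH SCD had 30 of 3554 (0.844%, 0.57 to 1.2%). WT HFD had 60 of 2992 (2.01%, 1.53 to 2.57%). HH HFD had 206 of 5349 (3.85%, 3.35 to 4.4%). The WT libraries of the 2 diets lay within each other's intervals, and within these bounds the HH SCD library lay below both and the HH HFD library above both. The HH share was 1.17 percentage points below WT on SCD (difference -1.17, interval -1.76 to -0.606) and 1.85 points above it on HFD (1.09 to 2.57). The HFD order depended on the bounds: with 3000 to 50000 UMIs and 2000 to 5000 genes WT HFD had 44 members of 2032 cells (2.17%) and HH HFD 90 of 4385 (2.05%), with WT SCD at 1.23% and HH SCD at 0.411%. Set against endothelial cells of the same library, which shared the isolation, members numbered 34.1 per 100 endothelial cells in WT SCD and 16.8 in HH SCD, then 30.8 in WT HFD and 45.4 in HH HFD, the same order as the shares. How many stromal cells a dissociation frees was not measured, and its part in these shares was not tested.

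**Figure D1:**
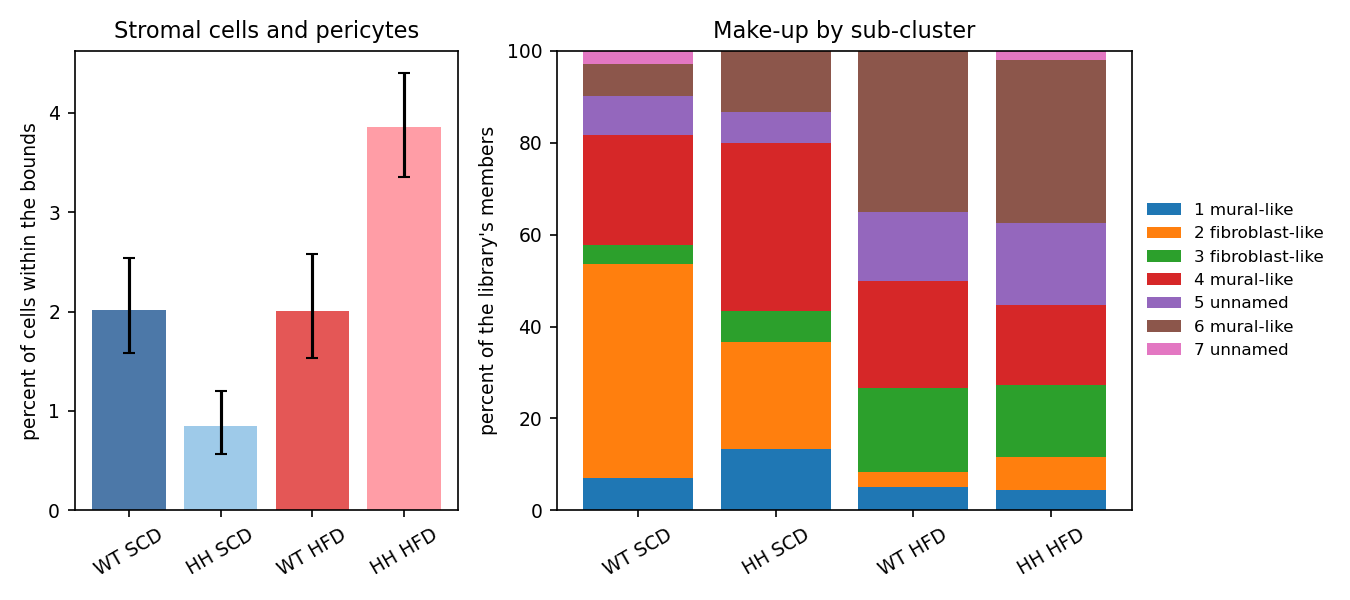
Left, members as a percent of the cells within the bounds of each library, with exact Clopper-Pearson 95% intervals as error bars (1 library per group). Right, the make-up of each library's members by sub-cluster in percent. HH SCD has the lowest share (0.844%) and HH HFD the highest (3.85%), and sub-cluster 2 makes up 46.5% of WT SCD members and 3.33% of WT HFD members.

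The 367 members were clustered together into 7 sub-clusters. Of these, 3 with 202 cells in all were mural-like by their markers, 2 with 105 cells were fibroblast-like and 2 with 60 cells stayed unnamed. The genes that define a sub-cluster were used to form it, so the values that follow are descriptions, with no test.

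Sub-clusters 4 (78 cells) and 6 (103 cells) were the main mural-like groups. Rgs5, a regulator of G-protein signalling that is the customary pericyte marker (chromosome 1), stood at 11331 CPM in sub-cluster 4 and 13502 CPM in sub-cluster 6, against 10.6 CPM in sub-cluster 2 and 0 CPM in sub-cluster 3. Both held Pdgfrb, the receptor by which endothelial PDGF-B recruits pericytes, at 762 and 760 CPM, and Notch3 at 787 and 920 CPM. They differed in level for several contractile genes. Acta2, smooth muscle actin, was at 1283 CPM in sub-cluster 4 and 5178 CPM in sub-cluster 6, Tagln at 1165 and 3548 CPM, and Myh11, the smooth muscle myosin heavy chain, at 468 and 1347 CPM. Kcnj8, which with Abcc9 forms the ATP-sensitive potassium channel of mural cells, was at 260 CPM in sub-cluster 4 and 58.5 CPM in sub-cluster 6, and Abcc9 at 384 and 234 CPM. Kcna5, a voltage-gated potassium channel, was among the leading genes of sub-cluster 6, at 164 CPM against 11 CPM in other members. Dcn was at 80.6 and 4.49 CPM in the pair. Cnn1, a marker of fully contractile smooth muscle, was at 0 CPM in sub-cluster 4 and 22.5 CPM in sub-cluster 6.

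Sub-cluster 1 (21 cells) was also mural-like, but mixed. It held Acta2 at 6974 CPM and Tagln at 7891 CPM beside Rgs5 at 5050 CPM and Dcn at 2594 CPM, and Actg2, Lmcd1 and Id4 led it against other members. Of the 367 members, 29 had over 100 UMIs per 10000 of the pericyte list and of the fibroblast list at once. Whether these are single cells or 2 cells under 1 barcode was not tested. The doublet caller marked none of the members and 0.281% and 0.0374% of the cells in the HH libraries, and its calls were not relied on.

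**Figure D2:**
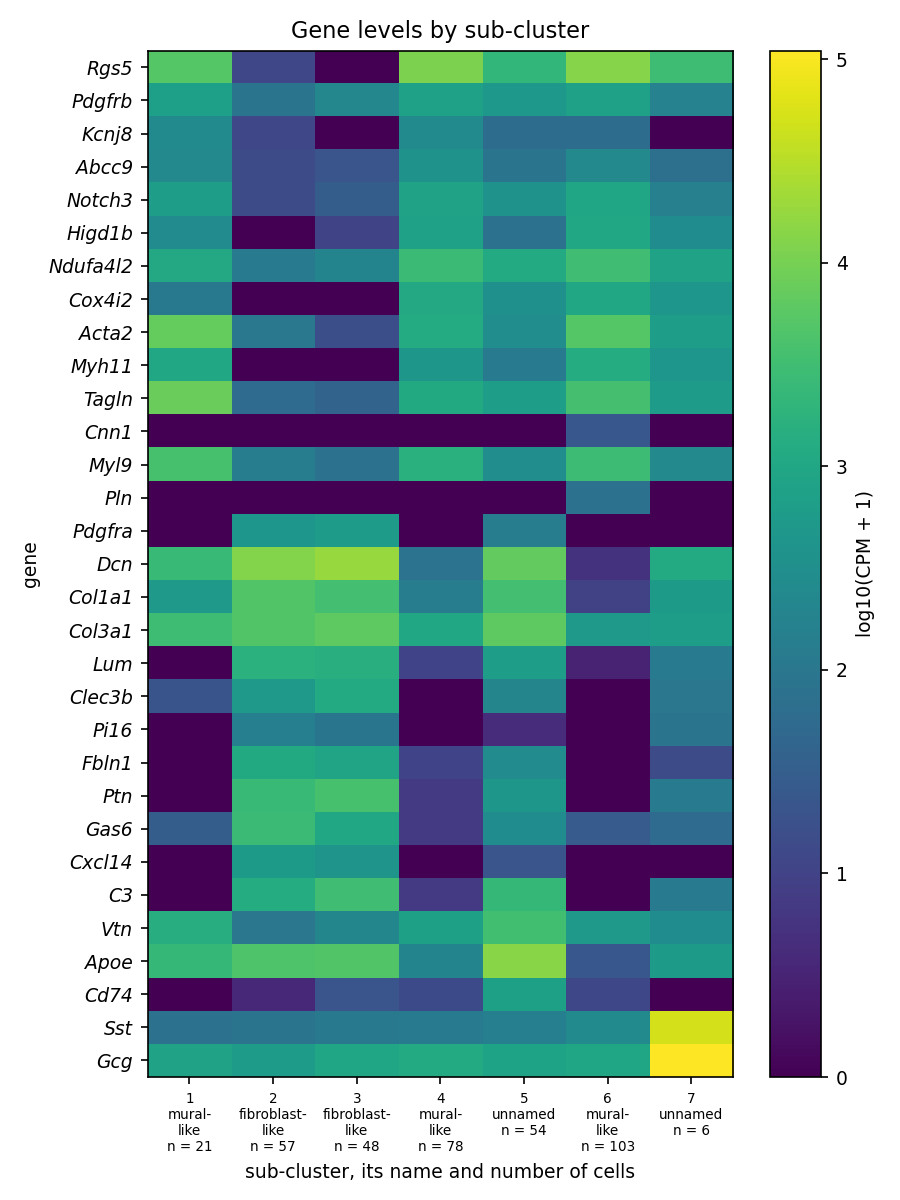
Level of marker genes in each sub-cluster as log10(CPM + 1), over the summed UMIs of its cells in all libraries. Rgs5, Notch3 and Higd1b are high in sub-clusters 1, 4 and 6, Dcn, Lum and Pdgfra in 2, 3 and 5, and Gcg and Sst in the 6 cells of sub-cluster 7.

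Sub-clusters 2 (57 cells) and 3 (48 cells) were fibroblast-like. Dcn, the collagen-binding proteoglycan decorin (chromosome 10), stood at 12688 and 17948 CPM, Col1a1 at 4805 and 3448 CPM, Col3a1 at 4709 and 6226 CPM and Pdgfra, a receptor of fibroblast precursors, at 436 and 616 CPM. Gas6, the ligand of the TAM receptors, was at 2712 CPM in sub-cluster 2 and 1076 CPM in sub-cluster 3, and Igfbp3 at 1228 CPM in sub-cluster 2. Smoc2, Fmod and Fbln2, which encode matrix proteins, led sub-cluster 3 at 1151, 465 and 531 CPM against 63.5, 28.0 and 41.1 CPM in all other members. Clec3b was at 534 and 1186 CPM. Pi16, a marker of adventitial fibroblasts, was low in both at 149 and 90.1 CPM. The stellate cell genes Lrat, Reln and Gfap were at 0 CPM in both.

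Sub-cluster 5 (54 cells) had markers of both lines, with Rgs5 at 2143 CPM, Vtn at 3301 CPM, Dcn at 6685 CPM and Col3a1 at 6158 CPM, and was left unnamed. Its leading genes came from few of its cells: Cxcl13, the B cell chemokine, stood at 2285 CPM but was found in 11.1% of them. The Cxcl13 and Cd74 UMIs of sub-cluster 5 came from HH HFD, where 6 of 37 cells of sub-cluster 5 held 663 Cxcl13 UMIs, 6 held 301 of Clu and 6 held 210 of Cd74, while the 6 WT SCD and 9 WT HFD cells had 0 UMIs of Cxcl13 and of Cd74. Clu had another 51 UMIs in 1 of the WT HFD cells. A count of 0 there allowed up to 130.4 CPM in WT SCD and 61.7 CPM in WT HFD (exact Poisson intervals). Apoe, a lipid carrier, was instead found in 6 of 6 cells of sub-cluster 5 in WT SCD (21634 CPM), 9 of 9 in WT HFD (21466 CPM) and 35 of 37 in HH HFD (11376 CPM). The 6 cells of sub-cluster 7 held Gcg at 109892 CPM and Sst at 51930 CPM, hormones of alpha and delta cells, and came from WT SCD (2 cells) and HH HFD (4 cells).

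**Figure D3:**
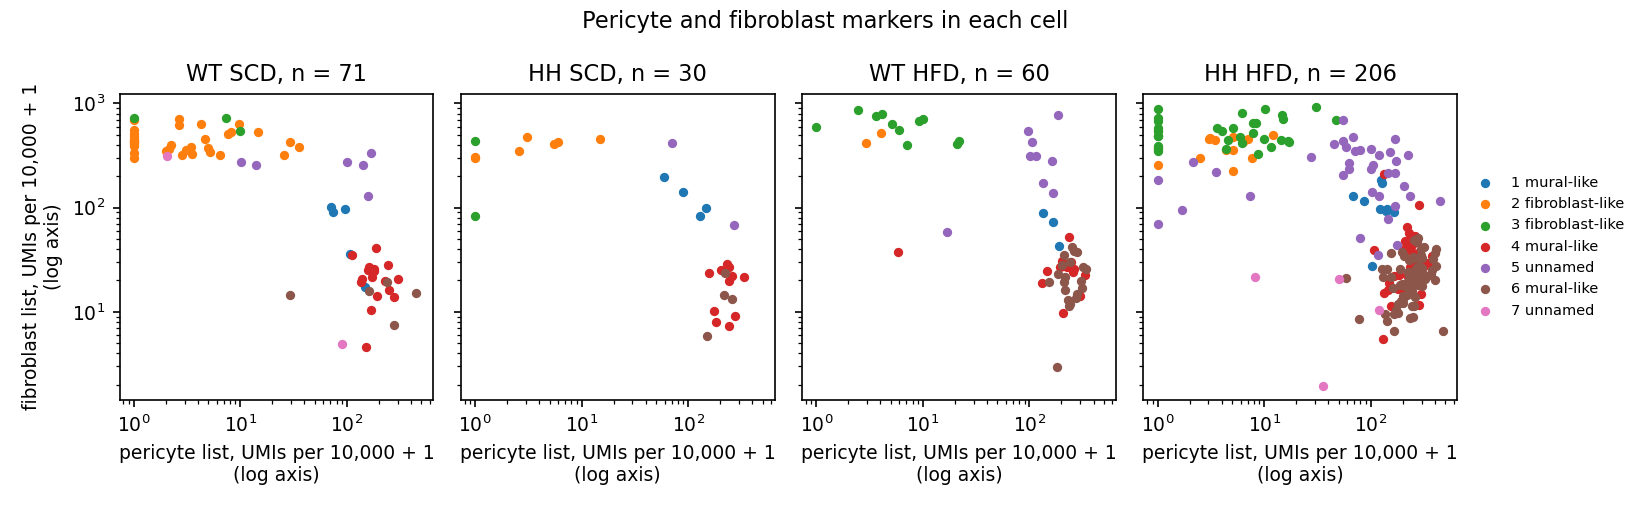
Each point is 1 member, with UMIs of the pericyte list per 10000 (x, log axis) against UMIs of the fibroblast list per 10000 (y, log axis), both plus 1, by library and coloured by sub-cluster. Mural-like and fibroblast-like cells lie along the 2 axes, and the fibroblast-like cells of the SCD libraries are mostly sub-cluster 2 and those of the HFD libraries mostly sub-cluster 3.

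The make-up of the members differed between libraries. Sub-clusters 4 and 6 together held 22 of 71 members (WT SCD), 15 of 30 (HH SCD), 35 of 60 (WT HFD) and 109 of 206 (HH HFD). Sub-cluster 6 alone was 7.04% of WT SCD and 13.3% of HH SCD members, and 35% of WT HFD and 35.4% of HH HFD members. Sub-cluster 2 was 46.5% and 23.3% of the SCD members and 3.33% and 7.28% of the HFD members, and sub-cluster 3 was 4.23% and 6.67% against 18.3% and 15.5%. Genes that differ between libraries helped to form the sub-clusters, so these sizes are a description of the cells and not a measure of cell types gained or lost. Over all members Rgs5 stood at 2913 CPM (WT SCD), 5914 (HH SCD), 7147 (WT HFD) and 7128 (HH HFD), and Dcn at 8311, 5783, 6221 and 4744 CPM. Over the whole member set a gene was called when its level was 2-fold or more apart with its exact conditional interval clear of 0, among 3076 genes with 100 or more UMIs. On that rule 3.45% of genes were higher and 3.02% lower in HH than WT on SCD, 1.5% and 0.683% on HFD, 8.97% and 5.98% were higher and lower on HFD than SCD in WT, and 4.71% and 4.06% in HH. The endocrine markers moved with these counts: of 6 alpha, delta and PP cell markers in use, 5 were called lower in HH on SCD, 6 higher in HH on HFD (median 2.79), 5 lower and 1 higher on HFD in WT, and 6 higher on HFD in HH. Leaving out the members with 5% or more of their UMIs from Gcg, Sst and Ppy (2 of WT SCD and 4 of HH HFD) left 4, 0, 2 and 0 of the 6 called in the 4 comparisons in that order. It left 200, 61, 461 and 264 genes called in all in place of 199, 67, 460 and 270, of which 173, 53, 426 and 246 had the same call as before, while 6, 7, 8 and 1 of the called genes changed direction. Without the genes of the member rule, 8 of 12 pericyte markers were called higher on HFD in WT, 1 was higher (Mcam) and 1 lower (Kcnj8) on HFD in HH, and 2 were higher (Higd1b and Kcnj8) in HH on SCD. Of 9 fibroblast markers in use outside the rule, 3 were called lower in HH on SCD (Clec3b, Lum and Mfap5), 1 lower on HFD in WT (Fbln1), and 1 higher (Mfap5) and 1 lower (Col14a1) on HFD in HH. Of both lists 0 were called in HH over WT on HFD. Scaled by the median of ratios, the WT diet comparison held 196 genes higher and 250 lower in place of 276 and 184 (43.9% of the calls higher in place of 60%), with the median of all genes moved by -0.15 on the log2 scale, and 220 and 228 when scaled to the sum without hormone, mitochondrial and ribosomal genes (moved by -0.11). The SCD genotype comparison held 82 higher and 118 lower by the median of ratios in place of 106 and 93. To lessen the part of the mix, the same comparisons were made within sub-clusters 4 and 6, where 1356 genes had 100 or more UMIs. Sub-cluster 6 made up 5 of 22, 4 of 15, 21 of 35 and 73 of 109 of these cells. The mix of the pair therefore still differed between the diets. The 4 sets of mural-like cells held 91904, 49189, 197147 and 429236 UMIs in WT SCD, HH SCD, WT HFD and HH HFD.

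Within sub-clusters 4 and 6 the pericyte markers were mostly less than 2-fold apart between libraries. Rgs5, Pdgfrb and the other genes of the rule helped to choose the members, and the pericyte markers to form the sub-clusters, so their levels are a description. Rgs5 was at 10370 CPM in WT SCD (953 UMIs in 21 of 22 cells), 11629 in HH SCD (572 UMIs, 15 of 15 cells), 11935 in WT HFD (2353 UMIs, 34 of 35) and 13475 in HH HFD (5784 UMIs, 109 of 109). Its 4 log2 differences lay between 0.17 and 0.21. Notch3, the receptor that mural cells need for their maturation, was at 827, 813, 918 and 853 CPM, and its HFD over SCD log2 differences were 0.15 in WT (-0.24 to 0.56) and 0.07 in HH (-0.4 to 0.58). Pdgfrb was at 631, 874, 837 and 741 CPM, and Cox4i2, a hypoxia-linked cytochrome oxidase subunit, at 1034, 1342, 1080 and 1053 CPM. Ednrb, an endothelin receptor, was at 892, 1098, 1065 and 741 CPM. Of the 14 pericyte markers 0 were called in HH over WT on HFD and in HFD over SCD in WT, 1 was called higher in HH over WT on SCD and the same gene, Kcnj8, lower in HFD over SCD in HH. Kcnj8 rested on 10, 17, 30 and 53 UMIs, or 109, 346, 152 and 123 CPM, so that HH SCD stood above the other 3 libraries. Both its calls used the 17 UMIs of HH SCD, and within sub-cluster 4 alone the HH diet difference was -0.60 (-1.45 to 0.32).

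Between diets, 6.93% of the 1356 genes were higher and 4.28% lower on HFD in WT mural-like cells, and 5.53% and 4.2% in HH. Sub-cluster 4 taken alone gave the same call for 98 of the 152 genes called in WT and 72 of the 132 called in HH. With sub-cluster 1 included these were 118 and 67. Scaled by the median of ratios, the HH comparison held 55 higher and 77 lower in place of 75 and 57, with the median of all genes moved by -0.10. The diet comparisons in WT and in HH share no library. Of 94 and 75 genes called higher, 20 were called in both (21.3% and 26.7%), and of 58 and 57 called lower, 12 were (20.7% and 21.1%). Across genes, which are not independent replicates, the 2 sets of log2 differences had a Pearson correlation of 0.28.

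**Figure D4:**
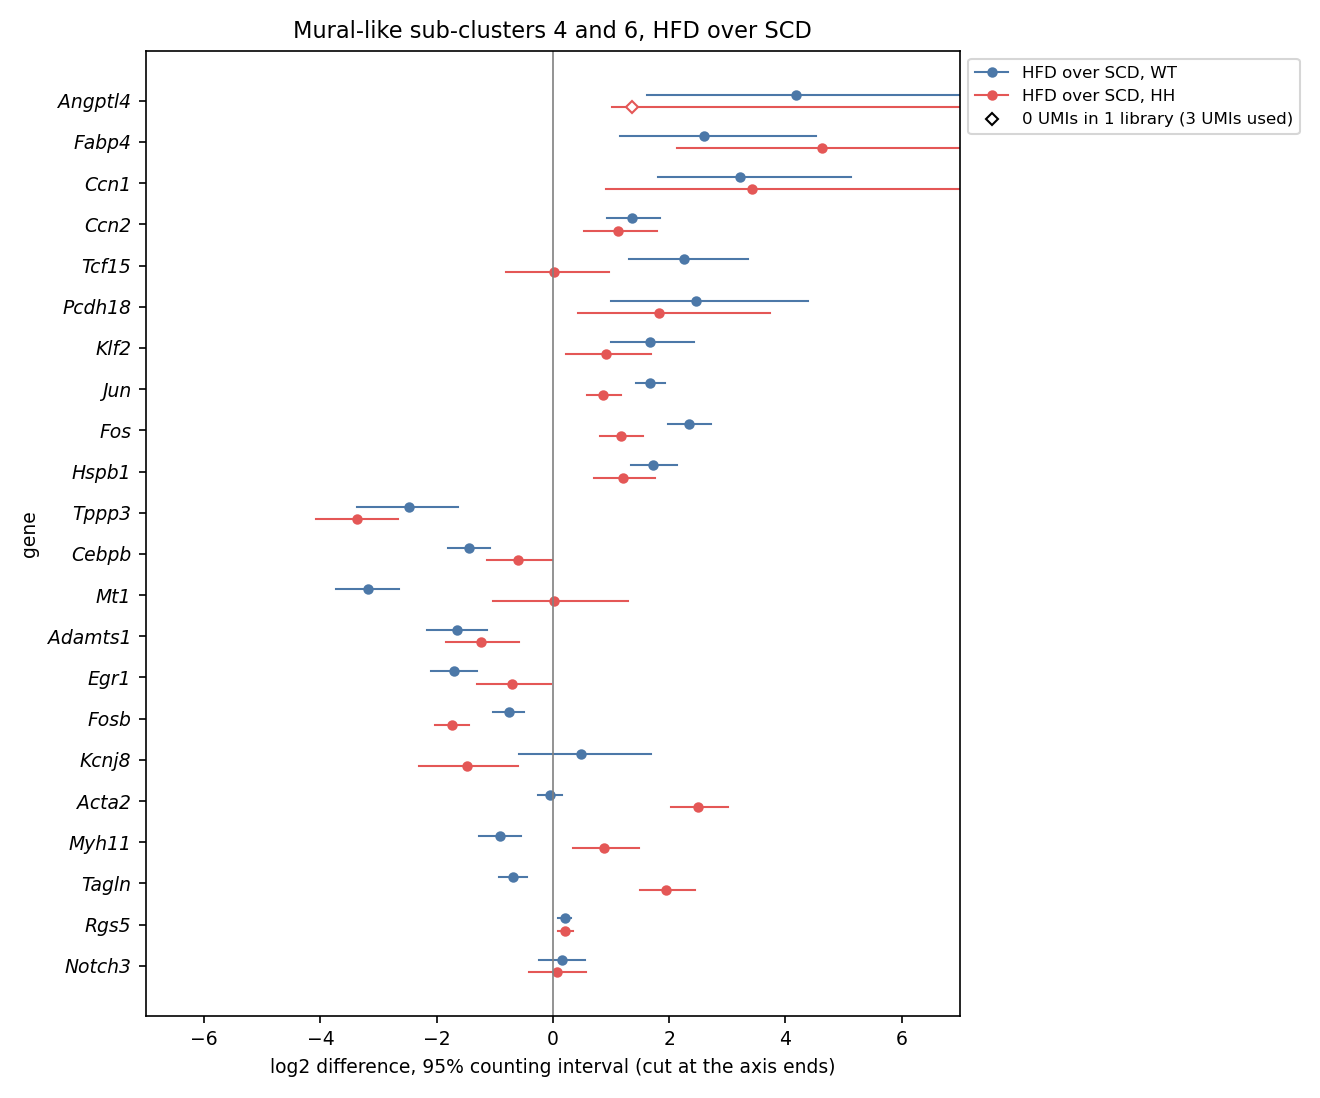
Log2 difference of HFD over SCD in mural-like sub-clusters 4 and 6, in WT (blue) and HH (red), with exact conditional 95% intervals of counting error, cut at the axis ends. The open diamond (Angptl4 in HH) marks a gene with 0 UMIs in 1 library, where 3 UMIs stand for the 0. Angptl4, Fabp4 and Ccn1 lie to the right in both genotypes, Tppp3 and Adamts1 to the left, and Rgs5 and Notch3 near 0.

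Genes of lipid handling were among those higher on HFD in both genotypes. Angptl4, a secreted inhibitor of lipoprotein lipase and a target of PPAR factors (chromosome 17), had 1 UMI in WT SCD (10.9 CPM) and 0 in HH SCD, 39 in WT HFD (198 CPM, 141 to 270, in 18 of 35 cells) and 67 in HH HFD (156 CPM, 121 to 198, in 47 of 109 cells). The HFD libraries did not overlap the SCD ones, and with 3 UMIs put in place of the 0, HH HFD was 2.56-fold above HH SCD. Within sub-cluster 4 alone the HH difference of Angptl4 was 0.53 against the same floor, under 2-fold. Fabp4, the fatty acid binding protein of adipocytes and capillary endothelium, was at 43.5 CPM (WT SCD), 20.3 (HH SCD), 264 (WT HFD) and 501 (HH HFD), with log2 differences of 2.6 (1.16 to 4.53) in WT and 4.62 (2.13 to 9.93) in HH. Fabp4 was the only one of 6 adipocyte markers with a UMI in members. Endothelial cells of the same libraries held it at 1109, 922, 1740 and 2482 CPM, and there too the HFD libraries were the higher pair. The part of endothelial RNA in the members' Fabp4 was not tested. Angptl4 was at 0.815, 1.11, 2.92 and 10.5 CPM in those endothelial cells. Fabp5 was at 32.6, 20.3, 81.2 and 200 CPM in mural-like cells. Of the 7 genes of the lipid and adipogenic list in use, 3 were higher and 2 lower in WT and 4 were higher in HH. The 4 in HH included Cebpd (1.17), which was lower in WT (-2.14) and was at -1.09 in HH with sub-cluster 1 included. The 2 lower ones in WT were Cebpb and Cebpd, transcription factors that also respond to inflammation, at 1654 and 762 CPM in WT SCD and 609 and 172 CPM in WT HFD.

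Of 5 proteoglycan and matricellular genes in use 2 were called higher on HFD in each genotype, Ccn1 and Ccn2. Ccn1, a secreted target of YAP and serum response factor, was at 43.5 CPM in WT SCD (4 UMIs), 20.3 in HH SCD (1 UMI), 406 in WT HFD (80 UMIs) and 219 in HH HFD (94 UMIs), whereas endothelial cells held it at 563, 803, 518 and 323 CPM. With the mixed sub-cluster 1 included, the HH diet difference of Ccn1 was 0.41 (-0.37 to 1.29), no longer called, and that in WT was 2.37. Ccn2, connective tissue growth factor, was at 533, 488, 1375 and 1065 CPM, with log2 differences of 1.37 (0.92 to 1.84) in WT and 1.13 (0.53 to 1.78) in HH. Within sub-cluster 4 alone the WT difference of Ccn2 was 0.45 (-0.12 to 1.04), under 2-fold. Of 7 basement membrane genes in use 1, Lamc1, was called higher on HFD in WT (1.34, 0.16 to 2.75) and 0 in HH, and of 3 fibrillar and associated collagens in use outside the member rule 0 were called in either. Col3a1, a gene of the rule whose values are a description, had a difference of -0.07 in WT and 1.06 in HH, the latter -0.31 with sub-cluster 1 included. Sparc was at 2459, 2887, 3769 and 4869 CPM, Igfbp7 at 4048, 4513, 6995 and 7057 CPM and the collagen chaperone Serpinh1 at 620, 651, 1091 and 1223 CPM, each higher in both HFD libraries than in both SCD libraries and each under 2-fold. Igfbp5, an IGF binding protein, was at 250, 224, 639 and 606 CPM and was called in both genotypes, but within sub-cluster 4 alone its HH difference was 0.46, and with sub-cluster 1 included its differences were 0.20 in WT and -0.47 in HH. Pcdh18, a protocadherin, was at 43.5, 81.3, 238 and 289 CPM and Snx18, a sorting nexin, at 65.3, 61, 274 and 226 CPM, both called in WT and HH. The WT difference of Pcdh18 was 1.39 (-0.30 to 3.47) in sub-cluster 4 alone.

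Immediate early genes differed between diets in opposite directions within the same list. Jun was at 1697, 2135, 5407 and 3893 CPM and Fos at 762, 1362, 3860 and 3054 CPM, higher in both HFD libraries, whereas Fosb was at 2263, 2826, 1334 and 846 CPM and Egr1 at 1512, 529, 467 and 326 CPM. Of 14 immediate early genes in use 3 were called higher and 2 lower in WT, and 3 higher and 1 lower in HH. Of 11 heat shock genes in use 3 were called higher and 0 lower in WT, and 3 higher and 1 lower (Hspa1b) in HH. Hspb1, a small heat shock protein abundant in muscle, was at 685, 691, 2267 and 1596 CPM, with log2 differences of 1.73 (1.34 to 2.13) in WT and 1.21 (0.71 to 1.75) in HH, the latter 0.15 within sub-cluster 4 alone. Endothelial cells of the same libraries held Jun at 975, 1099, 2538 and 2397 CPM, Fos at 918, 828, 1728 and 1675 CPM, Fosb at 1117, 914, 372 and 401 CPM and Hspb1 at 1617, 1542, 3643 and 2985 CPM, with the SCD and HFD libraries in the same order. Genes of this kind respond to dissociation, and the part of cell handling in these values was not tested.

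Among genes lower on HFD, Tppp3, a microtubule-associated protein found in tendon sheath and perivascular cells, was at 479 CPM in WT SCD (44 UMIs, 13 of 22 cells), 793 in HH SCD (39 UMIs, 12 of 15), 86.2 in WT HFD (17 UMIs, 11 of 35) and 76.9 in HH HFD (33 UMIs, 17 of 109). Both SCD libraries lay above both HFD libraries, with log2 differences of -2.47 (-3.37 to -1.64) in WT and -3.37 (-4.08 to -2.66) in HH. Within sub-cluster 4 alone they were -1.85 and -2.04. Tppp3 was at 8.15, 22.1, 5.1 and 9.56 CPM in endothelial cells. Adamts1, a secreted protease that cleaves proteoglycans, was at 870, 569, 279 and 242 CPM, and Lmna, which encodes lamin A and C, at 1240, 1342, 588 and 485 CPM, both called in both genotypes. The WT difference of Lmna was -0.94 in sub-cluster 4 alone, under 2-fold. Lmna was lower in the HFD libraries in endothelial cells as well, at 799, 695, 256 and 187 CPM.

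Metallothioneins are small cysteine-rich proteins that bind zinc and copper, and 1 of 3, Mt1, was in use within sub-clusters 4 and 6. There Mt1 stood at 1697 CPM in WT SCD (156 UMIs in 14 of 22 cells), 163 in HH SCD (8 UMIs, 4 of 15 cells), 188 in WT HFD (37 UMIs, 9 of 35) and 165 in HH HFD (71 UMIs, 32 of 109). WT SCD lay far above the other 3 libraries, which did not differ beyond their counting intervals. Without the 1 cell that held most of its UMIs in each library Mt1 was at 1231, 65.7, 64 and 146 CPM. The log2 differences that use WT SCD were -3.38 (-4.62 to -2.37) for HH over WT on SCD and -3.18 (-3.74 to -2.65) for HFD over SCD in WT. With sub-cluster 1 included they were -0.78 (-1.09 to -0.49), under 2-fold, and -3.92. Over all members HH SCD was below WT SCD by less than 2-fold for both genes: Mt1 was at 2310, 1714, 283 and 530 CPM (log2 difference -0.43), and Mt2 at 487, 270, 19.8 and 126 CPM (-0.85). On HFD both stood the other way, with HH above WT by 0.90 (0.59 to 1.23) on the log2 scale for Mt1 and by 2.67 (1.58 to 4.02) for Mt2, which was called and rested on 7 UMIs in WT HFD. Endothelial cells held Mt1 at 197, 68.6, 30.6 and 38.3 CPM. The promoters of the neighbouring genes Mt1 and Mt2 are shown because both genes moved together over all members. They run from 250 bases before to 30 after the RefSeq start in GRCm38.p6, on the plus strand, with the metal response element core TGCACNC or TGCGCNC in capitals, searched on both strands. Mt1 is at chr8:94178839-94179118 and held 3 matches, and Mt2 is at chr8:94172368-94172647 and held 4. Of 32851 promoter windows of that length 24.1% held at least 1 match, and a match is a description of the letters.
Mt1: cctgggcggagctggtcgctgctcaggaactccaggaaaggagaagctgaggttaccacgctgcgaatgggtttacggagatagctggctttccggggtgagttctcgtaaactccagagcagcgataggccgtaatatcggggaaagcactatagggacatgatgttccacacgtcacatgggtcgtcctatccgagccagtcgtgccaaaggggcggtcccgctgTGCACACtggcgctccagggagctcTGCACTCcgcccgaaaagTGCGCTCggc
Mt2: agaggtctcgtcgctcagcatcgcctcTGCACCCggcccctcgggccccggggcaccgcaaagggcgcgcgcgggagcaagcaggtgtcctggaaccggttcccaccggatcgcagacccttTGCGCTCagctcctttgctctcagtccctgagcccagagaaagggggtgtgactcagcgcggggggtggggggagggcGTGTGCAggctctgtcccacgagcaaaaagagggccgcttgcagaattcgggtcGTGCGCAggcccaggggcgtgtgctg

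Between genotypes, 2.43% of the 1356 genes were higher and 3.1% lower in HH than WT mural-like cells on SCD, and 0.885% and 0.664% on HFD. On SCD this set 15 cells against 22. The 2 genotype comparisons share no library. 0 of the 33 and 12 genes called higher were called in both, and 1 of the 42 and 9 called lower was, and across the 1356 genes the 2 sets of log2 differences had a Pearson correlation of -0.1.

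**Figure D5:**
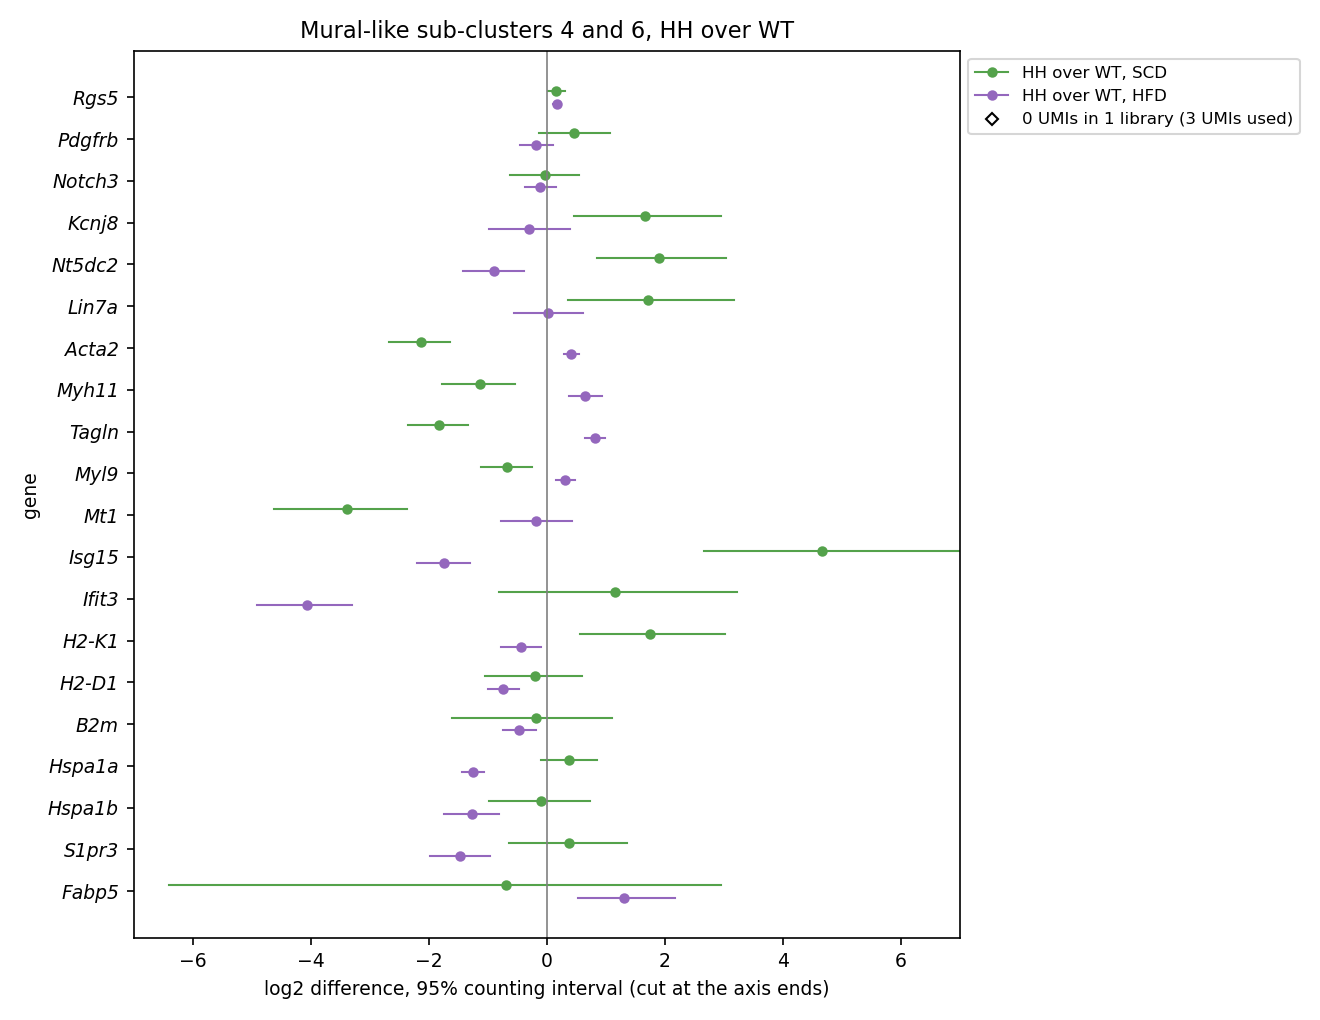
Log2 difference of HH over WT in mural-like sub-clusters 4 and 6, on SCD (green) and HFD (purple), with exact conditional 95% intervals of counting error, cut at the axis ends. Acta2, Tagln and Mt1 lie to the left on SCD only, S1pr3 and Hspa1a to the left on HFD only, and Rgs5 and Notch3 near 0 on both.

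Of 16 contractile genes in use 3, Acta2, Tagln and Myh11, were called lower in HH than WT on SCD, 12 were below 0 and 4 above, and single WT cells held most of the Acta2 and Tagln UMIs. Acta2 stood at 3210 CPM (WT SCD), 732 (HH SCD), 3094 (WT HFD) and 4138 (HH HFD), and its log2 difference on SCD was -2.13 (-2.67 to -1.63). A single cell held 70.2% of the 295 Acta2 UMIs of WT SCD, and a single cell held 56.8% of those of Tagln. Without the deepest cell of each library the difference of Acta2 was -0.44 (-1.07 to 0.15) and that of Tagln -0.65 (-1.24 to -0.1), and within sub-cluster 4 alone -0.86 and -0.96. With sub-cluster 1 included they were -0.19 and -0.01. Of 8 smooth muscle markers in use 3 were called lower on SCD and 0 on HFD, where all 8 were above 0 with a median of 0.54. In HH cells, 5 of the 8 were called higher on HFD than on SCD: Acta2 by 2.5 (2.02 to 3.02) and Tagln by 1.95 (1.49 to 2.45) on the log2 scale. Within sub-cluster 4 alone these were 1.24 and 1.08. With the mixed sub-cluster 1 included they were 0.37 and -0.083. Sub-cluster 6, the one richer in contractile genes, made up 4 of the 15 HH SCD cells and 73 of the 109 HH HFD cells.

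Nt5dc2, a nucleotidase-domain protein, was at 131 CPM (WT SCD), 488 (HH SCD), 304 (WT HFD) and 163 (HH HFD). Its level in HH was above WT on SCD (log2 difference 1.9, 0.85 to 3.04) and below it, by under 2-fold, on HFD (-0.9, -1.42 to -0.38). Within sub-cluster 4 alone the SCD difference was 1.65. S1pr3, a sphingosine-1-phosphate receptor that acts in mural cell contraction, was at 250, 325, 380 and 137 CPM. On HFD it was lower in HH by 1.47 on the log2 scale (difference -1.47, -1.99 to -0.96), and sub-clusters 4 and 6 taken singly gave -1.34 and -1.48. The inducible heat shock gene Hspa1a was at 1001, 1301, 2572 and 1079 CPM, and on HFD it was lower in HH (-1.25, -1.44 to -1.07), as was its near-identical copy Hspa1b (-1.27, and -0.42 within sub-cluster 4 alone), whose reads cannot be fully separated from it. Tcf15, a mesodermal transcription factor, was at 109, 264, 517 and 268 CPM, highest in WT HFD, and was called higher on HFD in WT (2.25, 1.31 to 3.35) but was at 0.02 (-0.81 to 0.97) in HH. Its WT difference was 1.36 (-0.02 to 2.97) in sub-cluster 4 alone.

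Of 6 interferon-responsive genes in use within sub-clusters 4 and 6, 3 (Ifit3, Isg15 and Bst2) were called higher on HFD in WT and 2 (Ifit3 and Isg15) lower on HFD in HH. Between genotypes 2 (Isg15 and Bst2) were called higher in HH on SCD and 2 (Ifit3 and Isg15) lower in HH on HFD. The UMIs of the called genes were concentrated in few cells. Ifit3 had 5, 6, 122 and 16 UMIs in the mural-like cells of WT SCD, HH SCD, WT HFD and HH HFD, and 91.8% of those of WT HFD were in 1 cell. Cxcl10 had 427 UMIs in 2 cells of WT HFD and at most 3 UMIs in the other libraries. Isg15 had 2, 27, 111 and 72 UMIs, found in 2 of 22, 6 of 15, 10 of 35 and 19 of 109 cells, with 77.8% in 1 cell of HH SCD and 61.3% in 1 cell of WT HFD. Bst2 had 3, 9, 50 and 95 UMIs, with 54% of those of WT HFD in 1 cell. Of 3 MHC class I genes in use, 3 were called higher on HFD in WT and 1, B2m, in HH. Between genotypes 1 was called higher in HH on SCD and 0 on HFD. The UMIs of B2m were spread over more cells. B2m, the light chain of class I molecules, was at 185 CPM in WT SCD (12 of 22 cells), 163 in HH SCD (6 of 15), 903 in WT HFD (30 of 35) and 652 in HH HFD (73 of 109), and it was called higher on HFD in both genotypes (2.29, 1.57 to 3.1, in WT and 2, 1.01 to 3.23, in HH). With sub-cluster 1 included these were 1.22 (0.76 to 1.71) in WT and 0.35 (-0.11 to 0.85) in HH, the latter no longer called. Without the cell that held most of its UMIs in each library B2m was at 160, 128, 677 and 570 CPM. H2-K1 was at 109, 366, 624 and 461 CPM and H2-D1 at 468, 407, 1065 and 638 CPM. In endothelial cells B2m was at 1836, 1733, 2315 and 2177 CPM, with log2 differences of 0.33 in both genotypes. Leukocytes, which also express class I genes, were most frequent in the WT HFD library, and their part in these values was not tested.

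The fibroblast-like cells numbered 36 (WT SCD), 9 (HH SCD), 13 (WT HFD) and 47 (HH HFD), too few in 2 libraries for comparisons, and their levels are given as they stood. In sub-cluster 2, the 33 WT SCD cells held Il6, an inflammatory cytokine, at 528 CPM (22 cells), the 7 HH SCD cells at 404 CPM (2 cells) and the 15 HH HFD cells at 0 UMIs (upper limit 37.9 CPM). Nr4a1, an immediate early nuclear receptor, was at 1361, 1213 and 226 CPM in the same 3 sets, and Thbs1, a matricellular protein that activates TGF-beta, at 1314, 1303 and 257 CPM. Gas6 was at 2366, 3280 and 2689 CPM and Dcn at 12377, 13053 and 12582 CPM. Both mark the sub-cluster and Dcn is a gene of the member rule, so their levels are a description and no yardstick for the other genes. Sub-cluster 3 held Thbs1 at 398 CPM in WT HFD and 295 CPM in HH HFD, and Il6 at 15.9 and 16.9 CPM.

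Over all members the same genes divided the SCD from the HFD libraries. Sub-cluster 2 made up 46.5% and 23.3% of the SCD members and 3.33% and 7.28% of the HFD members. The values over all members therefore take in the make-up as well as the level. Il6 was at 435 CPM in WT SCD (29 of 71 cells), 309 in HH SCD (5 of 30), 19.8 in WT HFD (4 of 60) and 21.8 in HH HFD (12 of 206), with log2 differences of -4.46 (-5.79 to -3.38) in WT and -3.82 (-4.68 to -3.02) in HH. Thbs1 was at 846, 695, 90.6 and 140 CPM, Nr4a1 at 1006, 749, 125 and 204 CPM, and Cxcl1, a neutrophil chemokine, at 625, 517, 139 and 147 CPM. Endothelial cells held Nr4a1 at 933, 891, 375 and 270 CPM, lower on HFD too, but Thbs1 at 796, 826, 744 and 675 CPM. Cxcl14, a chemokine of fibroblasts, was at 258, 30.9, 34 and 188 CPM over all members, so that WT SCD and HH HFD stood above the other pair. Of the 26 HH HFD members with a Cxcl14 UMI 24 were fibroblast-like, as were 15 of 15 in WT SCD.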

How the data were processed

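Islets of 4 groups of mice were profiled with the 10x 3′ v3.1 chemistry, 1 library per group. Per the labels' processing notes the authors ran Cell Ranger on build mm10, and the deposited matrices hold UMI counts per gene and barcode, with no correction for free RNA and no doublet removal. The authors' own filters were narrower, and are among the alternatives. Barcodes within the stated bounds were taken through the member rule, and members were normalised to 10000 UMIs, log-transformed and clustered with Leiden at resolution 0.5 on 15 principal components of 2000 variable genes (scanpy 1.11.5). Sub-clusters were named from fixed marker lists. Scrublet, as run in scanpy, marked 0 members. RNA from outside the cell was estimated at 3.72 to 5.07% of members' UMIs and was not subtracted. UMIs were summed per library, and a gene was called at 2-fold or more with an exact conditional interval clear of 0 among genes with 100 or more UMIs over the 4 libraries. Levels have exact Poisson and shares exact Clopper-Pearson intervals at 95%. A 0 was set to 3 UMIs for folds. The ratio and its call were checked on simulated sums with counting error alone. Those sums held no spread between cells or libraries, so the check does not cover such spread. Named genes were the 8 highest and 8 lowest log2 ratios in each comparison among genes with an interval clear of 0. A 2-fold difference was not required of them. Each was in 10% or more of the higher library's cells and at least as high in members as in other cell types. No cell held over 25% of its UMIs in that library. The rule genes and markers were named too, and from each list up to 4 genes with the most UMIs and any gene called. Cxcl13, Clu, Id4, Lmcd1 and Kcna5 fall outside that rule and were named after their values were seen. Cdkn1a, Gadd45g, Syne1 and Csrp1 are given among the flagged results because their calls went in opposite directions. No 2 samples could serve as replicates. The members, gene lists and sub-clusters 4 and 6 were chosen with earlier results of these data known. Depth was 68011082 to 104810105 UMIs per library.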

Additional observations from a re-analysis of the deposited data

Results flagged for a closer look

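The share of stromal cells lay on opposite sides of WT in the 2 diets, with HH -1.17 percentage points from WT on SCD and 1.85 points from it on HFD. With 3000 to 50000 UMIs and 2000 to 5000 genes this was not so: WT HFD had 2.17% and HH HFD 2.05%. Each value sets 1 library against 1 other, and whether the diets differ in it was not tested.

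In the mural-like sub-clusters 4 and 6, 5 of 1356 genes passed the 2-fold call for HH over WT in opposite directions on the 2 diets, and 5 passed that for HFD over SCD in opposite directions in the 2 genotypes. Isg15 was in both sets, which makes 9 genes, and none of these differences was tested. Cebpd, an inflammation-responsive transcription factor, had an HFD over SCD log2 difference of -2.14 in WT and 1.17 in HH. With sub-cluster 1 included the HH value was -1.09 (-1.53 to -0.63), and without the deepest cell of each library 0.99 (-0.18 to 2.46). Nt5dc2 had 1.22 in WT and -1.58 in HH, and without the deepest cells 0.87 in WT. Ckb, a creatine kinase, had an HH over WT log2 difference of -1.03 on SCD and 1.20 on HFD, which were 0.11 and 0.92 without the deepest cells. The interferon-responsive gene Ifit3 had HFD over SCD differences of 3.51 in WT and -1.71 in HH. Isg15 had HFD over SCD differences of 4.69 in WT and -1.71 in HH, and HH over WT differences of 4.66 on SCD and -1.75 on HFD. For Ifit3 and Isg15 a single cell held 91.8% and 61.3% of the WT HFD UMIs and 83.3% and 77.8% of those of HH SCD. Without the deepest cells their HH diet differences were 0.71 and 0.30. The other genes, Cdkn1a, Gadd45g and Syne1 between genotypes and Csrp1 between diets, are given because their calls went in opposite directions, and so were picked by their values. Cdkn1a had -1.23 on SCD and 1.18 on HFD, Gadd45g -2.88 and 1.09, and Syne1 -1.53 and 1.31. Csrp1 had -1.60 in WT and 3.21 in HH, with 91.7% of its WT SCD UMIs in 1 cell and 1 UMI in HH SCD.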

How the results depend on the processing

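No paired analysis was possible because each group had 1 library, and leaving out a replicate was not possible either. Of 1963 gene values under alternatives that could change them, 1787 kept their direction and call, 166 kept the direction only and 10 reversed. The settings that changed the mural-like cells moved more. With sub-cluster 1 included, 70 kept both, 24 kept the direction only and 5 reversed. In sub-cluster 4 alone 72 kept both and 27 the direction only, and in sub-cluster 6 alone 5 kept both, 2 the direction only and 2 reversed. The causes were not tested. Choices of sub-clusters 1, 4 and 6 and the removal of hormone-rich cells were added after seeing the data. Gene comparisons with Ins1 and Ins2 under 1% were not run, since 12, 9, 2 and 22 members were left.

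With 3000 to 50000 UMIs and 2000 to 5000 genes, the WT SCD and HH SCD shares were 1.23% and 0.411%, and WT HFD (2.17%) was no longer below HH HFD (2.05%). With 4 or more rule genes they were 1.44% in WT HFD and 2.94% in HH HFD. With insulin under 1% the SCD libraries had 0.341% (WT) and 0.253% (HH), and the HFD libraries 0.0668% (WT) and 0.411% (HH).

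Over all members, 199 and 67 genes were called in HH over WT on SCD and HFD, and 460 and 270 in HFD over SCD in WT and HH. With 50 UMIs the first 3 counts were 312, 184 and 827, with 200 UMIs the 4 were 103, 33, 221 and 131, and with a 1.5-fold call 335, 263, 874 and 463. In sub-clusters 4 and 6 the 4 counts were 75, 21, 152 and 132. With 50 UMIs they were 126, 90, 313 and 229, and with 200 UMIs 28, 7, 59 and 57. With a 1.5-fold call the last 3 were 108, 261 and 231. HH over WT on HFD had 60 with 4 or more rule genes, 75 in sub-cluster 4 alone and 37 in sub-cluster 6 alone, and HH over WT on SCD had 45 with sub-cluster 1 included. The number of sub-clusters was 7, and 4 and 11 at Leiden resolutions 0.3 and 1.

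Without the deepest cell of each library Ckb in HH over WT on SCD was 0.11, and Ifit3 and Isg15 in HFD over SCD in HH were 0.71 and 0.30. With sub-cluster 1 included, HFD over SCD in HH was -0.51 for Ccl11, -1.09 for Cebpd, -0.31 for Col3a1, -0.47 for Igfbp5 and -0.083 for Tagln. In sub-cluster 6 alone, HH over WT on HFD was 0.91 for Ccl2 and 0.50 for Isg15.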
